A study of Oncorhynchus kisutch with 82 samples.

Results

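In the gill of juvenile coho salmon (Oncorhynchus kisutch), 150 of 43236 array probes were picked because their log ratios were lowest in river smolts and higher in fish caught at sea in summer and fall. The members were thus chosen by measured log ratios. Arrays whose log ratios had a standard deviation (SD) of up to 1.3 were used, and 20368 probes had values on at least 60% of those arrays in each of 6 groups, the smolts, summer fish and fall fish of 2008 and of 2009. The score of a probe was the lowest of its 4 summer and fall medians minus the higher of its 2 smolt medians. A score above 0 was reached by 2662 probes, and the 150 highest were taken. The difference between smolts and summer or fall fish on those arrays was therefore selected for. It is described here and not tested.

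The gill is the main site of salt exchange in fish. In fresh water its ionocytes take up ions that are lost by diffusion, and in sea water they secrete the excess of salt that fish gain by drinking. Smoltification, the change that young salmon undergo before they leave the river, prepares the gill for this switch while hormone and immune functions of the tissue also shift. The probes carry array positions as names and were not paired with genes in the sources used here, so no gene, pathway or cell type can be given for any member, and lists of ion transport, hormone receptor and immune genes or marker genes of gill tissue could not be applied.

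Each array held gill RNA of 1 fish, beside a pool of gill RNA that carried the other of 2 Alexa dyes, with the same dye for the fish on all 82 arrays. The direction of the deposited log ratio and its log base are not stated. "Higher" and "lower" below refer to that log ratio, not to an amount of RNA. If the values are log2, a difference of 1 is a factor of 2. A bulk measurement of this kind cannot tell fewer cells of a type apart from less RNA per cell.

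The stages are river smolts and ocean spring, summer, fall and winter fish. The arrays used for the pick held 20 smolts (8 of 2008, wild or hatchery fish of the Chilliwack, and 12 of 2009, hatchery fish caught in the area labelled chehalis and wild fish in that labelled salmon), 17 summer fish (10 of 2009 and 7 of 2008) and 25 fall fish (11 of 2009 and 14 of 2008). All of those ocean fish came from the area labelled SoG (south, mid or north) and were wild or hatchery fish, mostly of Fraser stock. The others were of Chilliwack stock or of the stock labelled S_Main, and 1 fall fish of 2008 had no stock label. By label, the smolts of 2008 were of Chilliwack stock and those of 2009 of Fraser stock. Also within the limit were 4 spring fish, all wild and of 2009, from south SoG. They were of Fraser or Chilliwack stock or of the stock labelled S_Main. The 2 winter fish were within the limit too, both hatchery males of Puget Sound stock caught in the area labelled WCVI in 2009. The ages of the fish were not given.

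The remaining 14 arrays had an SD above 1.3 and were left out of the pick. Among these were 7 smolts caught in 2008 and 5 fish caught in the summer of 2009, with a single fall fish per year. Both the smolts and the ocean fish among them included wild and hatchery fish. Across all 82 arrays the SD ran between 0.636 and 1.88, and the number of probes with a value between 12606 and 31972 (median 23735). Array medians lay between -0.151 and 0.167. Of the 150 members, 86 had no empty value on any of the 82 arrays, and the member with the fewest values had 54.

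Seen as the median over the members on each array within the SD limit, the stages separated for most fish. Between the smolts and the summer and fall fish of these arrays, the pick selected for this. In the smolts used for the pick the median log ratio of the members lay between -1.65 and 0.14, with -0.92 as the middle fish. It was below 0 in 19 of 20 smolts. The exception was fish 1, a hatchery smolt of 2008 that was the longest of the smolts used, at 14.1 cm. In the 4 spring fish the median ran between 0.17 and 0.44. In the summer fish used it ran between -0.71 and 0.86 with 0.53 in the middle, and in the fall fish used between -1.06 and 0.93 with 0.44 in the middle. Both winter fish were above 0.6, at 0.61 and 0.65. The smolts overlapped with the summer and fall fish, since 2 of 17 summer fish and 7 of 25 fall fish were below 0.

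The share of members with a log ratio above 0 is another view of the same selected values on the same arrays. This share was not counted over all probes. It was 12.2% in the middle smolt (range 2.01% to 57.3%) and 66.7% in spring fish (56% to 71.7%). It was 76% in summer fish (23% to 86.7%), 70% in fall fish (21.1% to 83.3%), and 71.3% and 78.4% in the winter fish.

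By the 6 group medians, 79 of the 150 members crossed 0, with both smolt medians below it and all 4 ocean medians above it. A further 17 were below 0 in every group, 1 was above 0 in every group, and 53 had other patterns. The lower smolt median was that of 2008 for 112 members. Among the ocean medians, fall 2009 was the lowest for 88 members, against 19 each for summer 2008 and fall 2008 and 24 for summer 2009. The highest was fall 2008 for 55 members and summer 2008 for 48. Scores ran between 0.65 and 2.64 with a median of 0.84, and 49 members scored above 1.

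C153R120 had the highest score, 2.64. Its log ratio was between -5.01 and -1.10 in smolts (median -3.82, n = 20). It was -0.14, -1.07, -0.80 and -1.40 in the spring fish. In summer fish it lay between -1.17 and 1.45 (median -0.18, n = 17), in fall fish between -4.26 and 1.00 (median -0.99, n = 25), and in the winter fish it was -0.74 and -0.08. Apart from fish 1 among the smolts and the lowest of the fall fish, the smolts lay below all ocean fish of these arrays.

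C168R092 also scored 2.64 but was more variable at sea. It lay between -4.75 and -0.86 in smolts (median -4.19). The spring fish had -0.05, 0.39, 0.42 and -0.33. Summer fish lay between -2.72 and 1.14 (median 0.41), fall fish between -4.04 and 2.04 (median -0.41), and the winter fish had 0.72 and 0.82. Its fall 2009 median was -1.44, against 0.28 in fall 2008, so the fall fish of 2009 set its score.

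The third member, C130R073, scored 2.14. Smolts lay between -5.18 and 0.65 (median -2.35). The spring fish had 0.85, 0.44, 0.93 and -0.08. Summer fish lay between -4.56 and 2.12 (median 0.95), fall fish between -5.57 and 2.07 (median 0.44), and the winter fish had 1.56 and 1.34. The lowest summer fish lay within the range of the smolts and the lowest fall fish below it, although all spring and winter fish were above the smolt median by more than 2.

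C148R144 and C151R100, with scores of 1.98 and 1.95, stayed below 0 by median at every stage. C148R144 had medians of -3.47 in smolts, -0.59 in spring, -0.98 in summer, -1.22 in fall and -0.80 in winter fish. C151R100 had medians of -2.59, -0.29, -0.11, -0.42 and -0.56 in the same order of stages. In C151R100 the highest smolt was at -1.36, and the lowest spring, summer, fall and winter fish were at -0.47, -1.38, -1.70 and -0.91, so the smolts overlapped with summer and fall fish at the margins and not with spring or winter fish.

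The next 5 members crossed 0 between smolts and summer fish. C174R151 (score 1.67) had a median of -0.79 in smolts, 1.44 in spring, 1.19 in summer, 1.29 in fall and 1.66 in winter fish. C236R146 (score 1.52) had -1.19, 1.31, 0.75, 0.61 and 1.48 in that order, with values in 16 of 20 smolts. C201R005 (score 1.52) had -1.94 in smolts and -0.28, 0.39, 0.12 and 0.51 at sea. Its smolts lay between -3.09 and -1.31 and its lowest ocean fish within the limit was at -1.04, so no fish of these arrays overlapped.

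C044R116 (score 1.59) and C207R037 (score 1.49) were near 0 in spring fish and low in winter fish. C044R116 had medians of -1.36 in smolts, -0.08 in spring, 0.69 in summer, 1.11 in fall and -0.76 in winter fish. C207R037 had -1.10, -0.10, 0.60, 0.53 and -0.83. In both, the 2 winter fish, at -0.28 and -1.23 for C044R116 and at -1.12 and -0.53 for C207R037, lay within the range of the smolts.

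At the edge of the pick, the 3 lowest members were C119R014 and C203R164, both at 0.66, and C248R121 at 0.65. The 3 probes next below were C128R078, C056R016 and C031R048, all at 0.65. The edge does not part distinct probes.

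Spring and winter fish were not used in the pick. Relative to the smolt and ocean medians of each member, the spring median was at or above the lowest of the 4 summer and fall medians for 103 of 150 members. It lay between that median and the higher smolt median for 44, and at or below the higher smolt median for 3. In the winter fish, with values in both fish for 148 members, the counts were 110, 35 and 3. The spring median was above all 4 summer and fall medians for 28 members and the winter median for 73. The smolts in these counts are those the pick used, so the low side was selected for. The lowest of the 4 summer and fall medians also entered the score. The same counts were not made over all probes, so nothing is read from them.

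All 4 spring fish were above every smolt used in the pick for 18 of 145 members with enough values (12.4%), against 0.975% of all probes with such values. Both winter fish were above every such smolt for 68 of 148 members (45.9%), against 5.96%. Nothing is read from these shares, because the members were picked to be low in the same smolts.

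Smolts that the pick did not use allow a test of spring fish. Between the 4 spring fish and the 7 smolts of 2008 left out of the pick, 117 of the 150 members had enough values, and the log ratio of 78 of these was higher in spring fish (66.7%), by limma with Benjamini-Hochberg adjustment over 15257 probes. Of all probes 27% were called higher, and 57.7% were called in either direction. No member was called lower. The median difference of the members tested was 1.39, and that of all probes tested was -0.08. When each spring fish was left out in turn, between 68 and 73 members were called, all higher (58.1% to 62.4%). Of all probes, 23.4% to 24.3% were then called higher. All 4 spring fish were above every one of these smolts for 60 of 115 members (52.2%), against 22.2% of all probes with such values.

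C151R100 had the largest of these differences. Its log ratios were -0.47, -0.26, -0.32 and -0.18 in the spring fish, against a range of -5.47 to -1.76 (median -3.69, n = 7) in the smolts left out. The difference was 3.36 ± 0.54 (SE; limma, adjusted p = 0.000152), and the groups did not overlap. C187R046 came next, with 0.62, 0.95, 0.93 and 0.86 in the spring fish, against -3.42 to -0.91 (median -1.97) in those smolts. Its difference was 2.95 ± 0.40 (SE; limma, adjusted p = 3.38e-05), again without overlap.

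These spring fish and smolts differ in more than stage. The spring fish were wild fish of 2009 and of several stocks. The smolts were 5 hatchery and 2 wild fish of 2008 from the Chilliwack, all of its stock. The 8 smolts of 2008 used in the pick were of the same year, river and stock. The test is therefore not fully independent of the pick. Stage and year, and in part origin and stock, cannot be told apart. The array SD also separated the spring fish from the smolts, at 0.636 to 0.793 in spring fish, against 1.33 to 1.64 in these smolts. Its part in the result was not tested.

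Fish caught at sea later in the year and left out of the pick gave a different picture. On these 14 arrays, the 7 ocean fish had a median of the members between -1.69 and -1.32, against -2.11 to -0.45 in the 7 smolts, and all 14 fish were below 0. Of 117 members with enough values, 63 were called (53.8%), against 41.8% of 14955 probes. The log ratio of 16 members was higher in the ocean fish (13.7%, against 15.1% of all probes), and that of 47 was lower (40.2%, against 26.7%). The median difference was -0.48 over the members tested and -0.23 over all probes tested. In the values as deposited, the share called higher was close to that of all probes, and most members tested were not called higher on the arrays left out.

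The balance of directions depended on scaling. With quantile normalization between arrays, 31 members were called higher (26.5%, against 16.4% of all probes) and 19 lower (16.2%, against 21.6%). The median difference was then 0.01, against -0.04 over all probes. In the values as deposited, without that normalization, every ocean fish was above every smolt for 7 of 117 members (5.98%, against 4.54% of all probes). Every ocean fish was below every smolt for 16 (13.7%, against 10.2%). All 7 of these smolts were of 2008 and of Chilliwack stock, as were the smolts of 2008 used in the pick. Of the 7 ocean fish, 6 were of 2009 and of Fraser stock. The 5 summer fish were all from mid SoG and the fall fish of 2009 from south SoG. The fall fish of 2008, 32.8 cm long and of Chilliwack stock, was from WCVI. Stage, year, stock and place of capture therefore cannot be told apart. Wild and hatchery fish were in both groups in unequal shares, and origin was not in the fit. The array SD was 1.33 to 1.88 in the ocean fish, against 1.33 to 1.64 in the smolts.

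Among the members that were higher in these ocean fish, C155R071 had the largest difference. It was between -0.48 and 0.65 (median 0.18, n = 7) in ocean fish, against -3.22 to -1.60 (median -2.47, n = 6) in smolts, without overlap. The difference was 2.60 ± 0.30 (SE; limma, adjusted p = 6.45e-06). C099R099 was between -0.23 and 0.51 in ocean fish, against -3.10 to -1.06 in smolts, also without overlap. Its difference was 2.50 ± 0.30 (SE; limma, adjusted p = 7.85e-06).

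Of the 10 members with the highest scores, C153R120 and C207R037 were called higher on these arrays. C153R120 had a median of 0.56 in ocean fish, against -1.92 in smolts, with a difference of 2.28 ± 0.52 (SE; limma, adjusted p = 0.00211). C207R037 lay between 0.28 and 1.08 in ocean fish, against -1.91 to -0.55 in smolts, with a difference of 2.07 ± 0.25 (SE; limma, adjusted p = 9.53e-06). For C207R037 the groups did not overlap.

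Another 5 of these 10 members went the other way. C168R092 lay between -5.09 and -3.81 in ocean fish, against -4.14 to -0.71 in smolts (difference -2.66 ± 0.43, SE; limma, adjusted p = 0.000138). C130R073 lay between -5.98 and -4.85 in ocean fish, against -4.35 to -0.51 in smolts (difference -3.15 ± 0.47, SE; limma, adjusted p = 6.07e-05). C148R144, C174R151 and C236R146 were lower too, by differences between -2.13 and -1.15. The remaining members, C151R100, C044R116 and C201R005, were not called, with differences of -0.15, 0.71 and 0.53.

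The lowest differences of all members were those of C088R108 and C262R150. C088R108 lay between -4.49 and -3.16 in ocean fish, against -2.01 to 1.12 in smolts, and its difference was -3.35 ± 0.41 (SE; limma, adjusted p = 1.02e-05). C262R150 lay between -6.46 and -4.30 in ocean fish, against -3.50 to -0.73 in smolts, and its difference was -3.32 ± 0.45 (SE; limma, adjusted p = 2.82e-05). Neither overlapped between the groups, and on the arrays used for the pick, with both years together, both had medians above 0.53 in summer and in fall fish.

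The levels of these sets of members at other stages are given as a description. The 16 higher ones had a median log ratio of -1.21 in the smolts used for the pick, -0.51 in spring, -0.13 in summer, -0.26 in fall and -0.37 in winter fish. The 47 lower ones had -1.19, 0.26, 0.51, 0.38 and 0.84 in the same order. The 54 that were not called had -1.14, 0.22, 0.58, 0.37 and 0.43, close to the 47 lower ones except in winter fish.

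The spread of an array moved with the members' values also among the arrays used. Within the 6 groups of stage and year, over 62 arrays, the log ratio of 45 of 150 members fell with array SD (30%, against 17.6% of 21953 probes). That of 9 members rose (6%, against 13.7% of all probes). In all, 54 members were called (36%, against 31.2% of all probes). The median slope over all 150 members, called or not, was -1.22 per unit of SD, against 0.02 for all probes. This fit was added after the values were seen. The steepest falls were those of C262R150 (-7.43 ± 1.85 per unit, SE; limma, adjusted p = 0.00198) and C130R073 (-7.33 ± 1.79, SE; limma, adjusted p = 0.00169). The largest rises were those of C107R105 (3.28 ± 0.60, SE; limma, adjusted p = 8.54e-05) and C062R114 (2.23 ± 0.67, SE; limma, adjusted p = 0.00982).

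Fall 2009 shows the same by fish. In the 5 fall fish of 2009 whose arrays had an SD above 1, the median of the members lay between -1.06 and -0.54. In the 6 with an SD up to 1 it lay between 0.15 and 0.59. The 3 fall fish of 2008 with an SD above 1 did not follow this, at -0.26, 0.43 and 0.93. Fish 1 had the widest array of the smolts used (SD 1.19) and the highest median of the members among them, 0.14. The other smolt used with an SD above 1, fish 1439 (SD 1.06), was at -1.42. Among all summer and fall fish used, 6 of the 8 with an SD above 1 were below 0, and 3 of the 34 with an SD up to 1. Whether this spread comes from the array or the fish was not tested.

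Where they were caught varied as well. In fall 2009 the 2 fish from mid SoG and the 1 from north SoG had member medians between -1.06 and -0.54, and the 8 from south SoG had a range of -0.84 to 0.59. In fall 2008 the order was another, with 2 fish from south SoG at -0.53 and -0.26 and 11 from mid SoG between 0.30 and 0.93. Among these fall fish, no area had all its fish below 0 in both years. The fall 2009 fish from mid and north SoG were all on arrays with an SD above 1. In each summer, 1 of the 2 used fish from mid SoG was below 0, and 0 from north or south SoG. The 5 summer fish left out of the pick were all from mid SoG, with member medians between -1.69 and -1.35. Area and array SD were not tested apart.

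Among the members, log ratios rose and fell partly together within stage and year. Over 11175 pairs of members and 62 arrays, the middle Pearson r was 0.28, and 90% of pairs lay between -0.38 and 0.82. These pairs share arrays and the array SD, and r is given as a description. It was not computed for pairs of other probes, so it is not read as a trait of the members.

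Fall and summer fish were compared on the arrays used in the pick. The pick took the lowest of the 4 summer and fall medians, so this comparison is not independent of it. Capture area and stock were not in the fit, and the Chilliwack fish among these were all fall fish. Season is therefore in part mixed with stock and area. With year and origin in the fit, 5 of 150 members were called (3.33%), against 2.11% of 23565 probes, and the median difference was -0.30, against -0.01 over all probes. With array SD as a covariate the median difference of the members was 0.12 and 1 member was called (0.667%, against 0.331% of all probes). With slide as a fixed block, 0 members and 0 probes were called, with 14.7% of members and 7.63% of probes at an unadjusted p under 0.05. C035R080 had the largest rise, at 0.51 ± 0.55 in fall fish (SD, n = 25) and -0.12 ± 0.52 in summer fish (SD, n = 17), with a fitted difference of 0.69 ± 0.16 (SE; limma, adjusted p = 0.0155). It lost the call with array SD as a covariate (adjusted p = 0.0561). C053R081 was also called higher, by 0.40 ± 0.11 (SE; limma, adjusted p = 0.0489).

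C205R085 and C044R036 were lower in fall fish. C205R085 averaged -1.34 ± 0.71 in fall fish and -0.34 ± 1.16 in summer fish (SD, n = 25 and 17), with a fitted difference of -1.03 ± 0.29 (SE; limma, adjusted p = 0.0423). C044R036 averaged -0.65 ± 0.64 in fall fish and 0.19 ± 0.86 in summer fish, with a fitted difference of -0.86 ± 0.23 (SE; limma, adjusted p = 0.0334). Without fish 552, the shortest summer fish at 12.1 cm, neither passed the test (limma, adjusted p = 0.0864 and 0.0558). In that fit 2 members were called in place of 5 (1.33%, against 2.11% of all probes).

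The difference between fall and summer fish was itself tested between years, with origin in the fit but not capture area or stock. C205R085 was the 1 member called (0.667%), against 0.0222% of 22500 probes. In 2009 it averaged -0.85 ± 0.59 in fall fish (SD, n = 11) and -0.96 ± 0.82 in summer fish (SD, n = 10). In 2008 it averaged -1.72 ± 0.56 in fall fish (SD, n = 14) and 0.55 ± 1.01 in summer fish (SD, n = 7). The difference of the differences was 2.41 ± 0.44 (SE; limma, adjusted p = 0.0294), and with array SD as a covariate it was 2.39 with an adjusted p of 0.0563.

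Between the years at sea, 5 of 150 members were called (3.33%), against 2.74% of 23427 probes, and the median difference of 2009 minus 2008 was -0.32, against 0.06 over all probes. These arrays were used in the pick, which took the lowest of the 4 summer and fall medians, so this comparison is not independent of it. Capture area and stock were not in the fit. Of the fall fish used, 11 were from mid SoG and 2 from south SoG in 2008, against 2 and 8 in 2009. Chilliwack fish among them numbered 5 in 2008 and 1 in 2009. Year is therefore in part mixed with area and stock. C149R170 averaged 1.14 ± 0.56 in 2009 and 0.58 ± 0.55 in 2008 (SD, n = 21 each), with a fitted difference of 0.63 ± 0.16 (SE; limma, adjusted p = 0.04). C207R080 averaged 1.05 ± 0.34 in 2009 and 0.51 ± 0.40 in 2008, with a fitted difference of 0.51 ± 0.12 (SE; limma, adjusted p = 0.0257). C112R030 and C203R162 were lower in 2009, by fitted differences of -0.99 ± 0.29 and -0.82 ± 0.23 (SE; limma, adjusted p = 0.049995 and 0.0462). With all arrays kept, which adds the 5 wide summer arrays of 2009 and the wide fall array of each year, 24 members were called lower in 2009 (16%, against 6.58% of all probes) and 2 higher (1.33%, against 8.57%). With slide as a fixed block, so that fish were compared within slides, 0 members and 0 probes were called, with 8% of members and 3.91% of probes at an unadjusted p under 0.05.

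Among smolts used in the pick, 7 of 150 members were higher in 2009 than in 2008 and none was called lower (4.67%, against 7.08% of 23319 probes called higher and 15.2% called in either direction). The pick chose members for low smolt medians in both years on these arrays, so this comparison is not independent of it. C235R149 averaged -1.91 ± 0.23 in 2009 (SD, n = 12) and -3.42 ± 1.14 in 2008 (SD, n = 8), with a fitted difference of 1.45 ± 0.33 (SE; limma, adjusted p = 0.00617). C110R116 averaged -1.46 ± 1.16 in 2009 and -2.45 ± 1.26 in 2008, with a fitted difference of 1.42 ± 0.41 (SE; limma, adjusted p = 0.0242). Fish 1 weighs on this count. Without it 39 members were called higher in 2009 (26%, against 7.79% of all probes). Without fish 36, a smolt of 5 cm, 4 members were (2.67%, against 7.53%). With slide as a fixed block, 2 of 149 members were called higher (1.34%, against 0.13% of all probes). The smolts of each year came from other rivers and were of another stock, so year cannot be told apart from river or stock.

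Hatchery and wild smolts differed in 15 of 150 members (10%), against 4.32% of 22873 probes, with year in the fit. The same smolts were used in the pick, which chose the members for low medians in them, so this count is not independent of the pick. The log ratio of 12 was higher in hatchery smolts (8%, against 1.99% of all probes) and that of 3 was lower (2%, against 2.33%). C145R143 averaged -0.35 ± 0.79 in hatchery smolts (SD, n = 9) and -2.22 ± 0.74 in wild smolts (SD, n = 5), with a fitted difference of 1.89 ± 0.39 (SE; limma, adjusted p = 0.0227). C147R047 averaged 0.10 ± 0.68 in hatchery smolts (SD, n = 7) and -1.42 ± 0.78 in wild smolts (SD, n = 6), with a fitted difference of 1.51 ± 0.37 (SE; limma, adjusted p = 0.0346). C110R116 and C186R068 were lower in hatchery smolts, by -1.50 ± 0.41 and -1.32 ± 0.36 (SE; limma, adjusted p = 0.0394 and 0.0413).

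The direction of this count depended on fish 1, a hatchery smolt of 2008, and its size on fish 36, another of these. Without fish 1, 4 members were called higher (2.67%, against 1.51% of all probes) and 14 lower (9.33%, against 2.25%). Without fish 36, 30 were called higher (20%, against 5.54%) and 4 lower (2.67%, against 5.02%). With slide as a fixed block, 0 of 146 members and 3 of 21731 probes were called, with 23.3% of members and 10.4% of probes at an unadjusted p under 0.05. In 2009 hatchery and wild smolts came from different rivers, so origin and river cannot be told apart in that year.

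No member was called for origin or sex at sea, for length among smolts, summer and fall fish, or for stock. Hatchery against wild fish in summer and fall gave 0 of 150 members and 0 of 23429 probes by limma (0%), with 0 members and 428 probes at an unadjusted p under 0.05. Males against females gave 0 of 150 members and 0 of 23901 probes (0%), with 4 members and 897 probes at that level. Fork length within stage and year, over 62 arrays that include the smolts, gave 0 members and 0 of 21953 probes (0%), with 8 members and 789 probes. Chilliwack against Fraser stock in fall 2008, with 5 and 7 fish, gave 0 members and 0 of 23233 probes (0%), with 8 members and 1332 probes. Median differences of the members were -0.09 for origin, 0.02 for sex, 0.03 per cm of length and -0.04 for stock. Those of all probes were 0.004, 0.002, 0.001 and 0.069 in the same order. These counts do not show that the groups are alike.

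Winter and spring fish were compared without any array of the pick's groups. Of 148 members with values, 10 were called (6.76%), against 0.658% of 18994 probes, and 57 members had an unadjusted p under 0.05 (38.5%, against 13.6% of all probes). The log ratio of 5 was higher in winter fish (3.38%, against 0.384% of all probes) and that of 5 lower (3.38%, against 0.274%). With quantile normalization 1 was higher (0.676%, against 0.174%) and 4 were lower (2.7%, against 0.1%). Leaving out a spring fish moved the total between 6 without fish 2133 (4.05%, against 0.279%) and 17 without fish 2247 (11.5%, against 2.05%). The median difference was 0.31, against -0.02 over all probes.

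C004R033 was 2.29 and 2.96 in the winter fish, against 0.47, -1.12, 0.41 and -1.31 in the spring fish (difference 3.01 ± 0.50, SE; limma, adjusted p = 0.0298). C119R014, a member at the edge of the pick, was -0.08 and -1.09 in winter fish, against -2.95, -3.66, -2.84 and -3.44 in spring fish (difference 2.64 ± 0.34, SE; limma, adjusted p = 0.0111). In both, winter fish were above every spring fish.

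C062R114 was -1.62 and -1.38 in the winter fish, against 0.80, 0.69, 0.83 and 0.90 in the spring fish (difference -2.30 ± 0.23, SE; limma, adjusted p = 0.00158). C132R019 was -1.23 and -1.63 in winter fish, against 0.88, 0.62, 0.13 and 0.70 in spring fish (difference -2.01 ± 0.27, SE; limma, adjusted p = 0.013). The winter values of both lay within the range of the smolts used for the pick, whose medians were -1.21 and -1.28. The winter fish differed from the spring fish also in origin, stock and place of capture, so stage cannot be told apart from these.

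By their names, which give a column and a row of the array, members lay more often in the upper rows. Rows above 85 held 62% of members and 49.4% of the probes with enough values for the pick, and the uppermost of 4 equal bands of rows held 36% and 24.3%. Adjacent positions were held by 2 pairs of members, C148R170 with C149R170 and C201R141 with C202R142. Whether position bears on the values was not tested.

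The list itself depended on the limits. Without the SD limit 87 of the 150 members were chosen again, with group means in place of medians 90, with values asked on 80% of arrays 133, and after quantile normalization 125. With an SD limit of 1, added after the values were seen, 62 were chosen again, including all 10 with the highest scores, and 143 of the 150 kept a score above 0.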

How the data were processed

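The authors deposited, per the labels' protocols, log ratios of a fish channel and a pooled gill channel for each probe, after RNA amplification and Alexa labelling. The deposited values were taken as log2, but the sources used here state neither base nor direction. They also name no scanner, background correction or normalization, nor the rule behind empty values (45.6% of all). The values were used as deposited, 60 control spots were left out, and nothing was imputed. In a second deposited table, 17574 values of 1 array were missing and no other value differed.

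The members, lists and comparisons were chosen with earlier results of these data known. Groups are the labelled season, year, origin, sex, stock and fork length. Fits ran in limma 3.58.1 (R 4.3.3; lmFit, eBayes) over all probes with values in at least 50% and at least 2 fish of each group. P-values are two-sided, Benjamini-Hochberg adjusted over all probes tested, and called under 0.05. The fits were also run on simulated log ratios with independent noise for each probe, without slide effects, wide arrays or probes that vary together. That run cannot show how often calls are false in these data. P-values measure the spread between single fish, and the number of arrays limits precision. Named members are the 10 highest scores, the 3 on each side of the edge, and up to 2 called members with the largest difference per direction and comparison. Any other member named was chosen after its values were seen. Alternatives were quantile normalization, array weights, slide as a random or a fixed block, the second table, complete probes, all arrays, and leaving out fish. Replicate numbers are fish numbers and pair no samples. Probes were not paired with genes, so planned gene and marker lists were not used, and no figures are drawn because the members are probes.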

Additional observations from a re-analysis of the deposited data

Results flagged for a closer look

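Arrays that stood apart from the other 3 to 9 arrays of their stage and year were looked for in the median of the members and in the 10 highest-scoring members, over 68 groups of values. Groups with fewer than 4 or more than 10 values were not tested. By Dixon's gap test 13 values stood apart. Chance flags about 1 in 20 groups where these are independent. The 68 groups were 11 items on shared arrays, so 1 fish can be flagged several times and that rate is no yardstick. Fish 1, a smolt of 2008, stood high for the median of the members (0.14, next smolt -0.87), C153R120 (-1.10, next -3.45), C130R073 (0.65, next -2.04) and C044R116 (-0.030, next -1.29). Fish 552, a summer fish of 2008, stood low for the median of the members (-0.71, next 0.24) and C130R073 (-1.50, next 0.51). Fish 2905, a summer fish of 2009, stood low for the median of the members (-0.47, next 0.11), C168R092 (-2.72, next 0.07), C130R073 (-4.56, next -0.85) and C174R151 (-1.39, next 0.22). On arrays left out of the pick, smolt 100 was low for C174R151 (-3.32, next -1.42) and summer fish 2857 was low for C236R146 (-4.10, next -2.21). Spring fish 2247 was high for C201R005 (0.39, next -0.25).

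C205R085 stood out because its difference between fall and summer fish differed between 2009 and 2008, by 2.41 in the test of the interaction. None of these patterns was weighed against a cause.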

How the results depend on the processing

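Members called in winter against spring fish numbered 5 (1 higher, 4 lower) with quantile normalization (3.38%, against 0.274% of all probes). With array weights there were 17 (11.5%, against 1.73%). The reported count was 10 (6.76%, against 0.658%). With spring fish left out in turn, the count ran from 6 without fish 2133 (4.05%, against 0.279%) to 17 without fish 2247 (11.5%, against 2.05%). In fall against summer fish, 5 calls became 3 with quantile normalization (2%, against 2.14% of all probes) and 14 with array weights (9.33%, against 4.68%). They became 2 with all arrays kept (1.33%, against 1.45%) and 1 with array SD as a covariate (0.667%, against 0.331%). Without fish 552 there were 2 (1.33%, against 2.11%). The 1 call of the year difference in that contrast became 0 with array SD as a covariate, where 0% of all probes were called. Between years at sea, 5 calls became 2 with quantile normalization (1.33%, against 1.56% of all probes) and 17 with array weights (11.3%, against 8.27%). They became 2 with slide as a random block (1.33%, against 1.01%) and 26 with all arrays kept (17.3%, against 15.1%). Among complete probes (no empty value in the fit) there were 11 (9.82%, against 4.43%). With array SD as a covariate there were 11 (7.33%, against 2.49%). Between smolt years, 7 calls (4.67%, against 15.2% of all probes) became 31 with array weights (20.7%, against 19.8%). They became 31 with all arrays kept (21.4%, against 38.1%) and 17 with array SD as a covariate (11.3%, against 16.8%). There were 4 without fish 36 (2.67%, against 16.4%) and 39 without fish 1 (26%, against 16.4%). Between hatchery and wild smolts, 15 calls became 26 (13 in each direction) with array weights (17.3%, against 7.58% of all probes). They became 8 among complete probes (6.9%, against 2.74%) and 9 with all arrays kept (6.08%, against 2.56%). Without fish 36 there were 34 (22.7%, against 10.6%). The 54 calls on array SD became 88 with array weights (58.7%, against 47.1% of all probes). The list of members shared 87 probes with that of all arrays, 90 with that of group means and 62 with that of an SD limit of 1. With slide as a fixed block, calls became 0 in fall against summer fish and 0 between years at sea, with 0% of all probes. They became 2 between smolt years (1.34%, against 0.579% of all probes) and 0 between hatchery and wild smolts (0%, against 0.0138%). This fit uses only differences within slides. Other total counts of calls stayed within 1.5 times the reported one. Their directions did not all hold: on the arrays left out of the pick, 16 higher and 47 lower became 31 and 19 with quantile normalization, and between hatchery and wild smolts 12 higher and 3 lower became 4 and 14 without fish 1.

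Of 213 recomputed values of named members in their comparisons, 174 kept direction and call, 39 kept direction but lost the call (12 of these with slide as a fixed block), and 0 changed direction. Some of the 213 could not change. The second table differs on 1 array only, so fits without that array were the same. Slide as a random block also changed nothing for spring fish against smolts, where each array had its own slide. Slide as a random block could not be fitted for the arrays left out of the pick or for winter against spring fish, and no fit was made without either winter fish, since the filter asks for 2. Replicate numbers are fish numbers, each of 1 fish, and pair no samples. The added alternatives, array SD as a covariate, the SD limit of 1, slide as a fixed block, and the fits without fish 1 or 552, were chosen after seeing the data. The causes of these shifts were not tested.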
